A study of Mus musculus with 2 samples.

Results

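Prok2 and 9 further genes, Lipg, Ggt1, Acvrl1, Itgb2l, Gpr27, Ceacam10, Tinagl1, Steap4 and Igfbp6, were followed through blood neutrophils of old and young mice. They are 10 of the 32285 genes in the count tables, each taken by its symbol, and all 10 were matched to the annotation by gene identifier. They had been put forward as lesser-known genes of immature neutrophils with results of these data known, so their levels and differences are given as descriptions, without tests. The data come from 1 single-cell library of old mice (24 months) and 1 of young mice (2 months), both labelled male. For both, blood was freed of red cells and live cells positive for CD45, CD11b and Ly6G were sorted and each cell's RNA molecules were tagged with a cell barcode and a unique molecular identifier (UMI). The labels name the BD Rhapsody microwell system for this, while the file headers name Cell Ranger 7.2.0, the software of another platform, and barcodes of 16 bases; the sources used here do not resolve this. Strain and number of animals are not given in the labels, and no treatment or genetic change is named. Since each age has a single library, ages cannot be tested against each other, and age cannot be told apart from whatever else differed between the libraries.

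Depth differed, with 128826996 UMIs over 14334 barcodes (median 7265.5) in the old and 69599479 UMIs over 13599 barcodes (median 4246) in the young library. Of the barcodes, 53 occurred in both libraries. Clusters that carried neutrophil markers held 8651 old cells (64.0% of those kept) and 9901 young cells (76.6%), although the sort was for Ly6G. The remaining clusters carried markers of monocytes, B, T and NK cells, platelets, erythroid cells, basophils or mast cells and neutrophil progenitors, or stayed unnamed. Cells with such markers are called "neutrophil-like" and so on. Levels are a gene's UMIs summed over cells and scaled so that all UMIs of those cells sum to 1000000 (CPM). Parentheses hold exact 95% intervals, which cover counting error only.

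Neutrophils mature in bone marrow and reach the blood mostly as mature cells. While they mature they make the proteins of their specific granules, among them lactoferrin (Ltf), cathelicidin (Camp) and neutrophilic granule protein (Ngp), and the transcripts of these genes wane before the cells leave the marrow. Blood cells rich in these transcripts are therefore commonly read as immature. Prok2 encodes prokineticin 2, also called Bv8, a secreted ligand of the receptors Prokr1 and Prokr2 that mouse myeloid cells make in response to the growth factor G-CSF and that is known for mobilizing myeloid cells and for promoting blood vessel growth.

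The 10 genes are protein-coding and lie on 8 chromosomes of GRCm38 (mm10). Prok2 (ENSMUSG00000030069) lies on the minus strand at chr6:99711299-99726392, and Gpr27 (ENSMUSG00000072875) on the plus strand at chr6:99692679-99695066, so that their 3′ ends face each other across 16232 bases with 0 annotated genes between. Acvrl1 (ENSMUSG00000000530) at chr15:101128522-101145336 and Igfbp6 (ENSMUSG00000023046) at chr15:102144362-102149511 share a chromosome and strand, with 63 annotated genes between them. Itgb2l (ENSMUSG00000000157) is at chr16:96422288-96443619 on the minus strand, Ceacam10 (ENSMUSG00000054169) at chr7:24777206-24784657 on the plus strand and Ggt1 (ENSMUSG00000006345) at chr10:75561604-75586200 on the plus strand. Tinagl1 (ENSMUSG00000028776) is at chr4:130164454-130175122 on the minus strand and Steap4 (ENSMUSG00000012428) at chr5:7960457-7982213 on the plus strand. An annotated gene on the other strand overlaps 3 of the 10, namely Gm26748 at Prok2, Gm16031 at Acvrl1 and Igsf5 at Itgb2l. Whether counting used strand is not given in the sources used here, so reads of these pairs may be shared. Igsf5 was highest where Itgb2l was, at 23.2 CPM in the old cells richest in granule transcripts, against 1.06 CPM in the poorest, while Itgb2l itself stood at 289 and 17.9 CPM there.

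Promoter sequences were available for 7 of the 10 genes, and those of Itgb2l, Prok2 and Steap4 are printed because these genes peaked at the high, middle and low end of the granule bands described next. Each line gives the 250 bases upstream of the RefSeq start (GRCm38.p6), 5′ to 3′ on the gene's strand. Capitals mark letters TTNNGNAA, a loose form of the core bound by C/EBP factors, which drive granulocyte genes, and GAGGAA, a core bound by the ETS factor PU.1, on either strand. No overlaps between the motifs occurred in these windows.
Itgb2l, chr16:96443615-96443864, minus strand: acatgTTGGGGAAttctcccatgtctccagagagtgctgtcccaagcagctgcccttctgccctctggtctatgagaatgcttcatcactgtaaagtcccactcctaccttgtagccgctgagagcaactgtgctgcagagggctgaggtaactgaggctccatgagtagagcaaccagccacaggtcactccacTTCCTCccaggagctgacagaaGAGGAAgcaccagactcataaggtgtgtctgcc
Prok2, chr6:99726393-99726642, minus strand: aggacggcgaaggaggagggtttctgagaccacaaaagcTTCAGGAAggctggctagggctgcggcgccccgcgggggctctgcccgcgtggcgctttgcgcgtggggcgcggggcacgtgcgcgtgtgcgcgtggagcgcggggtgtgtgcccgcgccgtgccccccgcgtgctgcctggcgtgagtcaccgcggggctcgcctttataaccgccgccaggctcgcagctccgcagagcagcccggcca
Steap4, chr5:7960222-7960471, plus strand: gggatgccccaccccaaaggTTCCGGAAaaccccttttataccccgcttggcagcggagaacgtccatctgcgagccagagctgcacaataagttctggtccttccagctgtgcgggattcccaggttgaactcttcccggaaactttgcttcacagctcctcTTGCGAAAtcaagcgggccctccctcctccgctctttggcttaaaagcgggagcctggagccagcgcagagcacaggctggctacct
The first motif was found 1 time at Itgb2l, 1 time at Prok2 and 2 times at Steap4, and 36.8% of 32851 promoters of this length hold it. The PU.1 letters were found 2 times at Itgb2l and 0 times at the other two, and 23.3% of promoters hold them. A match is a run of letters, not a known site.

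Neutrophil-like cells were split into 5 bands by the share of their UMIs from Ltf, Camp and Ngp: under 0.1%, 0.1 to under 0.5%, 0.5 to under 2%, 2 to under 5%, and 5% or more. These hold, low to high, 4471, 2192, 831, 604 and 553 old cells and 9726, 81, 40, 25 and 29 young cells. Median depth was greater the higher the band, with 17730 UMIs in the highest and 5973 in the lowest old band and 11968 and 4056.5 in the young ones. The lowest bands are not alike, since the summed share of the 3 genes there was 0.0558% in old and 0.00383% in young cells. B cells should lack neutrophil genes, so B cell-like cells (244 old and 419 young) give the level that free RNA and doublets leave. Their summed share of the 3 granule genes was 0.190% in old and 0.00355% in young cells. Few cells carried the old sum, since the median B cell-like cell stood at 0.0439% and 22 of 244 reached 0.1%. Marker lists of other cells differed along the bands as well. Progenitor markers summed to 80.3 CPM in the highest and 16.2 CPM in the lowest old band, with 8 of 8 genes detected in both, and to 11.1 and 8.05 CPM in the young bands, with 2 and 6 of 8 detected. The 7 classical monocyte markers other than Chil3, which immature neutrophils also express, summed to 1086 CPM in the highest and 376 CPM in the lowest old band, and to 1075 and 225 CPM in the young bands. Chil3 included, 8 of 8 of these markers were detected in both old bands, and 4 and 8 of 8 in the highest and lowest young bands. Their part in the levels below was not tested.

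Itgb2l and Lipg were highest where granule transcripts were highest. Itgb2l encodes a protein like the beta2 integrin subunit, known as pactolus and made in mouse neutrophils. From the lowest to the highest band it stood at 17.9, 72.4, 188, 266 and 289 CPM in old cells and at 4.32, 135, 263, 363 and 371 CPM in young cells. Each band was higher than the one before it in both libraries, although the fourth and the fifth young band did not differ beyond counting error (1.02-fold, 0.781 to 1.34). The highest band exceeded the lowest 16.1-fold (14.7 to 17.8) in old and 85.8-fold (68.2 to 108) in young cells. Nearly every cell of the highest band carried an Itgb2l UMI, 97.8% of old and 93.1% of young cells, against 7.38% of old and 0.716% of young B cell-like cells. After thinning every cell to 1000 UMIs these shares came to 25.2% and 30.6% in the highest band, against 0.823% and 0.0989% in B cell-like cells. The old and young B cell-like cells had median depths of 8668 and 6390 UMIs.

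Lipg (ENSMUSG00000053846, chr18:74939322-74961263, minus strand) encodes endothelial lipase, a phospholipase that acts on high-density lipoprotein. It stood at 24.7, 47.5, 67.2, 80.9 and 95.3 CPM along the old bands. Each old band was higher than the one before it, and the highest band exceeded the lowest 3.85-fold (3.49 to 4.26). Young cells held few Lipg UMIs, namely 20, 5, 0, 5 and 9 along the bands, and those of the highest band came to 25.1 CPM. The 0 in the third young band allows a level of up to 7.72 CPM, taken as 3 UMIs. Old B cell-like cells stood at 4.10 CPM and young ones at 0 UMIs.

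**Figure D1:**
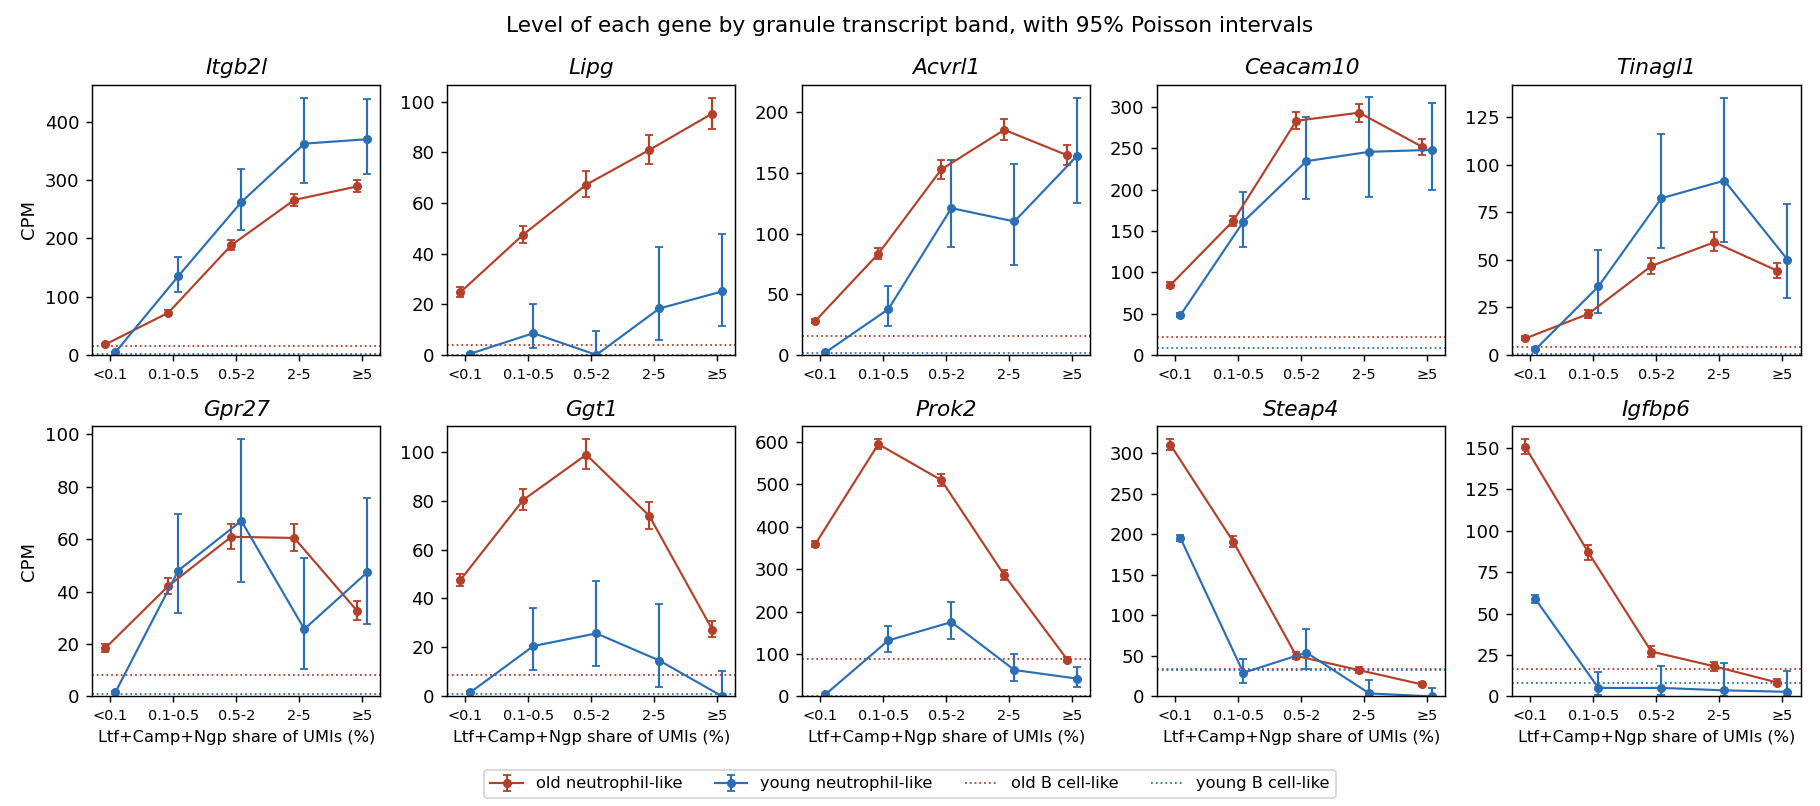
Level of each gene in CPM (vertical axis, linear, own scale per gene) in 5 bands of the Ltf+Camp+Ngp share of UMIs (horizontal axis) in old (red) and young (blue) neutrophil-like cells, 1 library each. Bars are exact 95% Poisson intervals and dotted lines give B cell-like cells of the same library. Itgb2l is higher in each further band of both libraries, Prok2 peaks in the middle at up to 594 CPM in old cells, and Steap4 and Igfbp6 are highest in the lowest band.

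Acvrl1, Ceacam10 and Tinagl1 held their highest levels in the upper 3 bands of both libraries. Acvrl1 encodes ALK1, a type I receptor for BMP9 and BMP10 known mainly from endothelium. Along the bands it stood at 28.0, 83.3, 153, 186 and 165 CPM in old cells and at 2.03, 37.7, 121, 110 and 164 CPM in young cells. In the highest band the libraries gave the same level, 1.0-fold old over young (0.772 to 1.32). The highest exceeded the lowest band 5.88-fold (5.40 to 6.41) in old cells and 81.0-fold (57.2 to 114) in young cells, since young cells of the lowest band had 87 Acvrl1 UMIs in all. B cell-like cells stood at 15.7 CPM in the old and 1.60 CPM in the young library.

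Ceacam10 encodes a secreted member of the carcinoembryonic antigen family. Its levels were 84.4, 162, 283, 293 and 252 CPM along the old bands and 48.0, 161, 234, 246 and 248 CPM along the young bands. The highest exceeded the lowest band 2.98-fold (2.82 to 3.15) in old and 5.17-fold (4.13 to 6.39) in young cells. Ceacam10 was thus the member of this trio with the most transcripts left in granule-poor cells, with 1437 of 4471 old cells (32.1%) and 1567 of 9726 young cells (16.1%) of the lowest band carrying a UMI, against 13.5% and 4.77% of B cell-like cells.

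Tinagl1, which encodes a secreted matrix protein related to tubulointerstitial nephritis antigen, stood at 8.65, 21.6, 46.7, 59.3 and 44.2 CPM along the old bands. Young cells gave 2.89, 36.0, 82.4, 91.6 and 50.1 CPM. The fourth band was the highest in both libraries, and in old cells it exceeded the next, the third, 1.27-fold (1.12 to 1.44). In young cells the fourth and the third bands held 25 and 32 UMIs, and the ratio of 1.11 (0.632 to 1.94) spans no difference.

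Gpr27, an orphan receptor of the SREB family coupled to G proteins, peaked in the middle. Its old levels were 18.4, 42.1, 60.9, 60.4 and 32.6 CPM, and the third and the fourth bands did not differ beyond counting error (1.01-fold, 0.898 to 1.13). Its young levels were 1.59, 48.0, 66.9, 25.7 and 47.4 CPM, with 7 to 28 UMIs in each of the upper 4 bands, too few to order those bands. B cell-like cells stood at 8.20 CPM in old and 0.959 CPM in young blood.

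Ggt1 and Prok2 were highest in cells of intermediate granule share. Ggt1 encodes gamma-glutamyltransferase, a surface enzyme that breaks down extracellular glutathione. It stood at 47.5, 80.3, 98.7, 73.8 and 27.3 CPM along the old bands, highest in the third. Young cells held 72, 12, 10, 4 and 0 Ggt1 UMIs, or 1.68, 20.6, 25.7 and 14.7 CPM in the first 4 bands, and the 0 in the highest band allows up to 8.36 CPM. The third young band did not differ from the second beyond counting error (1.25-fold, 0.484 to 3.16). The old B cell-like level was 8.95 CPM and the young 0.959 CPM.

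Prok2 stood at 359, 594, 509, 286 and 86.7 CPM along the old bands. It was highest in the second, 1.17-fold over the third (1.13 to 1.21), and lowest where Ltf, Camp and Ngp were highest. In young cells it stood at 4.6, 132, 175, 62.3 and 41.8 CPM, on 197, 77, 68, 17 and 15 UMIs. The young peak was in the third band, which did not differ from the second beyond counting error (1.33-fold, 0.943 to 1.86). The young highest band rests on 15 UMIs in 4 of 29 cells.

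The lowest and highest bands therefore gave opposite orders for Prok2. The highest stood at 0.242-fold of the lowest (0.225 to 0.259) in old cells and 9.09-fold over it (4.99 to 15.4) in young cells. The old call depended on the bands: with all limits halved the old log2 ratio was -0.76, and with bands cut from Lcn2, Chil3 and Ifitm6 it was -0.75, both short of 2-fold. Shares of cells with a Prok2 UMI were 42.0%, 63.5%, 82.8%, 81.5% and 51.4% along the old bands and 1.22%, 37.0%, 57.5%, 36.0% and 13.8% along the young bands. Thinned to 1000 UMIs they were 17.6%, 29.99%, 33.8%, 22.1% and 7.68% in old cells and 0.333%, 11.4%, 15.8%, 5.88% and 5.10% in young cells.

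Old B cell-like cells also carried Prok2, at 87.6 CPM, the level of the highest old band. A UMI was seen in 16% of them (4.40% after thinning), against 0.477% (0.08%) of young B cell-like cells, which stood at 1.60 CPM. Of the 235 Prok2 UMIs in old B cell-like cells, 205 lay in 15 cells with at least 5 each, and the other cells stood at 12.6 CPM. In the highest old band the share of cells with a UMI, 51.4% (7.68% after thinning), was above that of old B cell-like cells, although the summed level was not.

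Steap4 and Igfbp6 went against the name of immature neutrophil genes, being highest in the lowest band of both libraries. Steap4 encodes a membrane metalloreductase of iron and copper. It stood at 310, 191, 49.9, 32.4 and 14.7 CPM along the old bands and at 195, 29.1, 54.1 and 3.67 CPM in the first 4 young bands, with 0 UMIs in the highest. The highest stood at 0.0475-fold of the lowest (0.0401 to 0.0559) in old cells and was at least 23.4-fold lower in young cells, taking 3 UMIs for the 0. Igfbp6, which encodes a secreted binding protein that prefers insulin-like growth factor II, stood at 151, 86.9, 27.1, 18.2 and 8.41 CPM along the old and at 58.8, 5.14, 5.15, 3.67 and 2.79 CPM along the young bands. The upper 4 young bands of Igfbp6 hold 3, 2, 1 and 1 UMIs. B cell-like cells stood at 33.9 CPM Steap4 and 16.4 CPM Igfbp6 in old and at 32.0 and 8.31 CPM in young blood, so both genes were at or under that level in the highest band of each library.

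**Figure D2:**
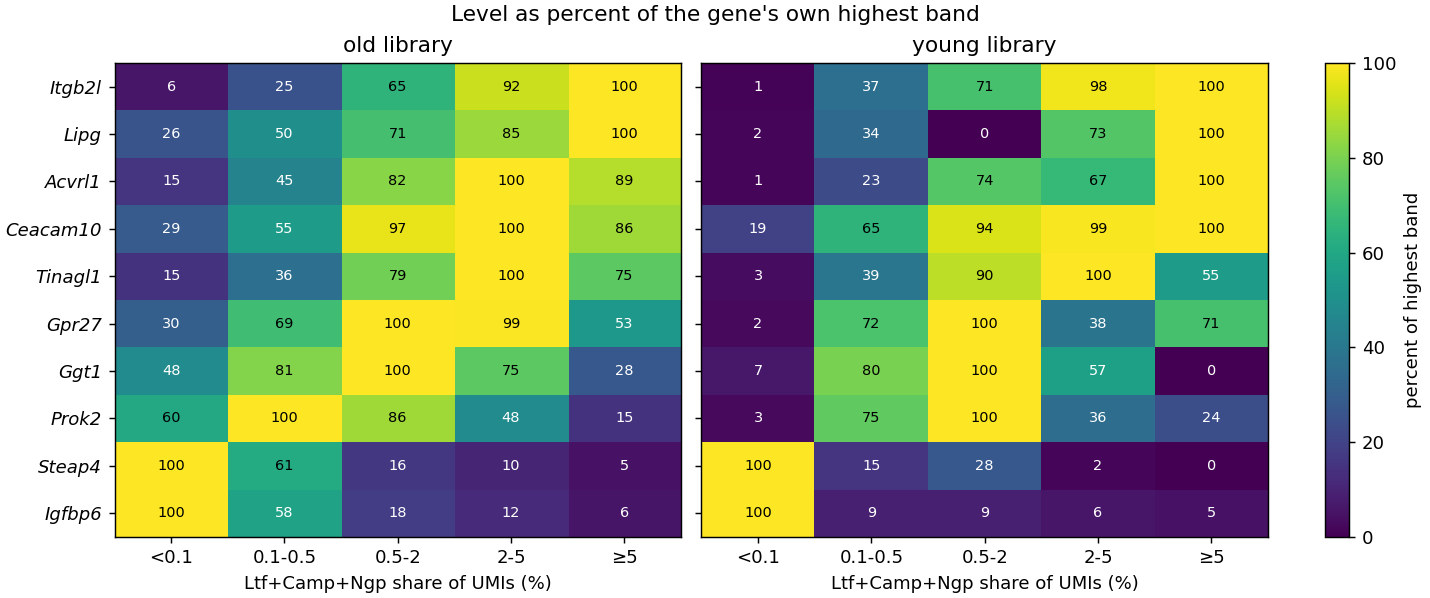
Level of each gene in each band as a percent of its own highest band (colour and numbers), old library left and young library right, with bands of the Ltf+Camp+Ngp share of UMIs on the horizontal axis. Top levels shift from the highest band for Itgb2l and Lipg to the lowest for Steap4 and Igfbp6, and young values of Lipg, Ggt1 and Igfbp6 rest on few UMIs.

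Counted at 2-fold with a floor of 5 CPM in the mean of both bands, the highest band of the old library was higher than the lowest for 5 of the 10 genes (Itgb2l, Lipg, Acvrl1, Ceacam10 and Tinagl1) and lower for 3 (Prok2, Steap4 and Igfbp6). Of all genes tested there, 9.29% were higher and 24.3% lower. Ggt1 and Gpr27 stayed within 2-fold, at log2 ratios of -0.78 and 0.79. In the young library 7 of 10 were higher, Prok2 and Gpr27 joining the same 5, and 2 were lower, while Ggt1 lay under the floor. The young background was 12.8% higher and 34.9% lower. The median log2 ratio was 1.18 over the 10 genes and -0.36 over all tested genes in old cells, and 3.32 and -0.49 in young cells. Since the genes were proposed with such results known, the counts are read as a description of them.

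In all neutrophil-like cells together, 8 of the 10 genes were at least 2-fold higher in the old library, where 4.25% of all tested genes were higher and 24.5% lower. Prok2 stood at 388 CPM in old and 8.41 CPM in young cells, 46.2-fold (41.7 to 51.3). Lipg stood at 52.3 CPM in old and 0.877 CPM in young cells, 59.6-fold (43.5 to 83.9), and Ggt1 at 62.7 and 2.20 CPM, 28.4-fold (23.3 to 35.1). Acvrl1, Gpr27, Itgb2l, Tinagl1 and Ceacam10 followed at 17.4-, 11.2-, 9.01-, 5.64- and 3.30-fold. Steap4 stood at 173 CPM in old and 189 CPM in young cells, and Igfbp6 at 83.4 CPM in old and 56.8 CPM in young cells, both within 2-fold. The groups also differ in the summed share of Ltf, Camp and Ngp, 1.58% in old and 0.0986% in young cells, and the median gene at 50 CPM or more stood at -0.68 log2. Relative to that gene Igfbp6 would also count as higher (log2 1.23).

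Within single bands the genes differed in how far the libraries stood apart. In the highest band Itgb2l stood at 0.781-fold old over young (0.656 to 0.937), Ceacam10 at 1.01-fold (0.821 to 1.27), Tinagl1 at 0.882-fold (0.552 to 1.5) and Gpr27 at 0.687-fold (0.423 to 1.19). Lipg remained 3.80-fold higher in old cells there (1.99 to 8.34), on 963 old and 9 young UMIs, and Prok2 2.07-fold (1.25 to 3.72). In 1 random draw of 1000 UMIs per cell the Lipg call was lost (log2 -0.082). With 29 young cells at that depth, such a draw holds too few Lipg UMIs to decide. The expected shares of cells with a Lipg UMI at that depth were 8.56% in old and 2.06% in young cells. Ggt1 was at least 3.27-fold higher. Counted as higher in old cells were 5 of 10 genes in that band, against 5.18% of all tested genes, with Steap4 and Igfbp6 resting on 0 and 1 young UMIs and on old levels at or under that of B cell-like cells. The Prok2 call is marginal, since it lay short of 2-fold without cells that held other cell types' markers (log2 0.99) and with equal weight per cell (log2 0.40), and was lost once the B cell-like level was taken off.

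In the second, the third and the fourth band Prok2, Lipg and Ggt1 were higher in old cells each time. Prok2 was 4.50-fold higher in the second (3.60 to 5.71), 2.91-fold in the third (2.29 to 3.75) and 4.59-fold in the fourth (2.86 to 7.88). Lipg was 5.54-fold higher in the second (2.37 to 17.1), at least 8.70-fold in the third, where young cells held 0 UMIs, and 4.41-fold in the fourth (1.88 to 13.6). Ggt1 was 3.90-, 3.83- and 5.03-fold higher. Steap4 and Igfbp6, within 2-fold over all cells, were 6.54-fold (4.08 to 11.2) and 16.9-fold (5.77 to 82.0) higher in old cells of the second band, on 17 and 3 young UMIs. In the third band Steap4 stood at 0.924-fold and Igfbp6 at 5.27-fold on 2 young UMIs. In the fourth they stood at 8.83- and 4.96-fold on 1 young UMI each, and the Igfbp6 interval spans 1 (0.878 to 197). Their old levels in the fourth band, 32.4 and 18.2 CPM, were near the 33.9 and 16.4 CPM of old B cell-like cells. Of the 91 Steap4 UMIs in old B cell-like cells, 37 lay in 4 cells, and the other cells stood at 20.8 CPM. In the same 3 bands Itgb2l stood at 0.534-, 0.718- and 0.734-fold and Ceacam10 at 1.01-, 1.21- and 1.19-fold. The counts of genes higher in old cells were 6, 4 and 6 of 10 in these bands, where 5.91%, 6.43% and 7.48% of tested genes were higher. No gene of the 10 was lower in old cells at 2-fold in any of the 5 bands, where, low to high, 11.1%, 8.54%, 15.5%, 14.2% and 14.9% of tested genes were.

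Cluster 3, led by Ltf, Camp and Ngp themselves, held 2242 old and 113 young cells at a granule share of 3.48% and 3.57%. Most of these cells lie in the upper 3 bands, so the values below largely reuse the cells compared above. Prok2 stood there at 339 CPM in old and 106 CPM in young cells (3.21-fold, 2.69 to 3.88). Lipg was 6.33-fold higher in old cells (3.76 to 11.6) and Ggt1 5.01-fold (3.08 to 8.78). Itgb2l stood at 0.773-fold and Tinagl1 at 0.702-fold, and Ceacam10, Gpr27 and Acvrl1 at 1.14- to 1.36-fold, all within 2-fold. Steap4 was 3.39-fold higher in old cells and Igfbp6 7.17-fold (2.44 to 34.9, 3 young UMIs). Their old levels there, 38.8 and 18.9 CPM, were near the 33.9 and 16.4 CPM of old B cell-like cells. Without 4 cells rich in Steap4, the B cell-like level of Steap4 was 20.8 CPM. Young Steap4, at 11.4 CPM, was under the young B cell-like level of 32.0 CPM.

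In the lowest band 8 of 10 genes were higher in old cells, against 2.68% of tested genes, with Prok2 at 359 CPM in old and 4.6 CPM in young cells (78.0-fold, 67.8 to 90.3). Only Ceacam10 (1.76-fold) and Steap4 (1.59-fold) stayed within 2-fold in that band. B cell-like cells also differed between libraries, with Prok2 at 87.6 CPM in old and 1.60 CPM in young and Itgb2l at 14.9 and 0.959 CPM. Old cells of the lowest band were near that level for Itgb2l (17.9 CPM) and further above it for the other genes counted. The part of free RNA and doublets in these differences was not tested.

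**Figure D3:**
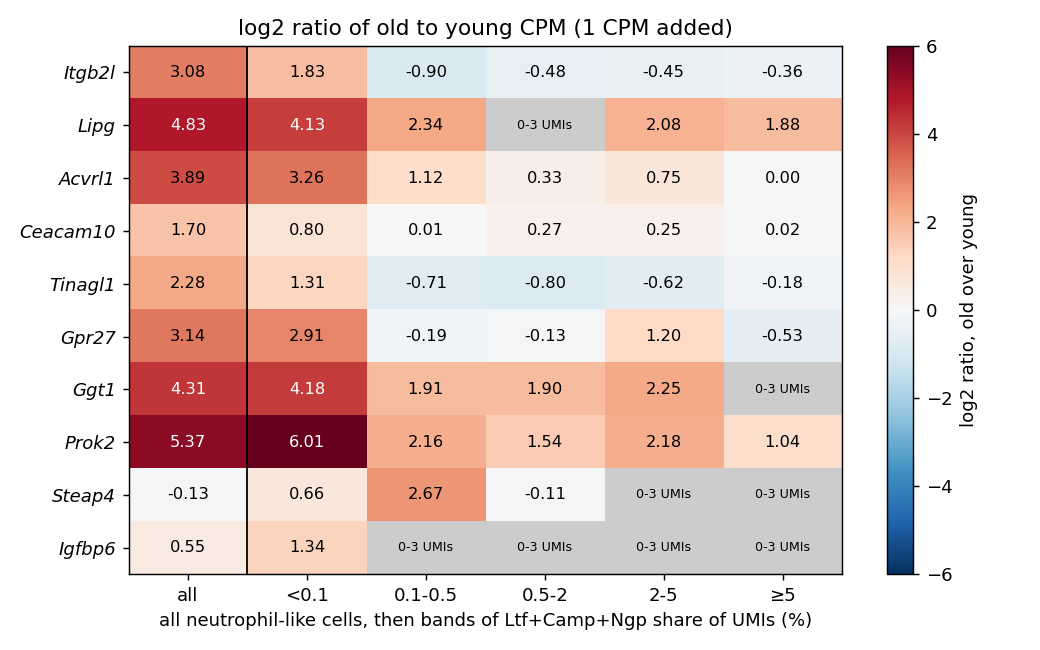
log2 ratio of old to young CPM with 1 CPM added (colour and numbers, red for higher in old) for each gene in all neutrophil-like cells and, right of the black line, in bands of the Ltf+Camp+Ngp share of UMIs. Grey cells have at most 3 young UMIs. Prok2 is red in each band, while outside the lowest band Itgb2l, Ceacam10 and Tinagl1 lie within 1 log2 unit of 0.

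Old cells of the lowest band were not of one kind. Clustering without the 10 genes and without Ltf, Camp and Ngp put 2943 of them in cluster 2, led by Wfdc17, Ifitm1 and Kit among genes other than Prok2, and 1254 in clusters 0 and 1, which together hold 8227 of the 9726 young cells of that band. Prok2 stood at 438 CPM (429 to 447) in cluster 2 and at 53.6 CPM in clusters 0 and 1 of the old library, 8.17-fold (7.24 to 9.24), although the summed share of Ltf, Camp and Ngp was close, 0.0575% and 0.0482%. Lipg stood at 29.7 and 2.53 CPM, 11.7-fold (6.82 to 22.2), and Ggt1 at 56.0 and 10.7 CPM, 5.24-fold (4.0 to 7.0). Itgb2l differed less, at 19.3 and 9.33 CPM (2.07-fold, 1.53 to 2.85), and Steap4 less still, at 327 and 254 CPM (1.29-fold, 1.21 to 1.37). Old B cell-like cells stood at 87.6 CPM Prok2, 4.10 CPM Lipg and 14.9 CPM Itgb2l, so clusters 0 and 1 were under that level for these genes. Ggt1 was near it (8.95 CPM) and Steap4 above it (33.9 CPM). Folds over clusters 0 and 1 thus rest on background-like levels for Lipg, Itgb2l and Ggt1. For Prok2, 205 of the 235 UMIs of old B cell-like cells lay in 15 cells. The other B cell-like cells stood at 12.6 CPM, under the 53.6 CPM of clusters 0 and 1. Clusters are made from the same cells' transcripts, so this is a description. Young cells of the lowest band in cluster 2 numbered 87 and carried Prok2 at 25.4 CPM (11 UMIs), against 4.56 CPM in 8227 young cells of clusters 0 and 1.

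**Figure D4:**
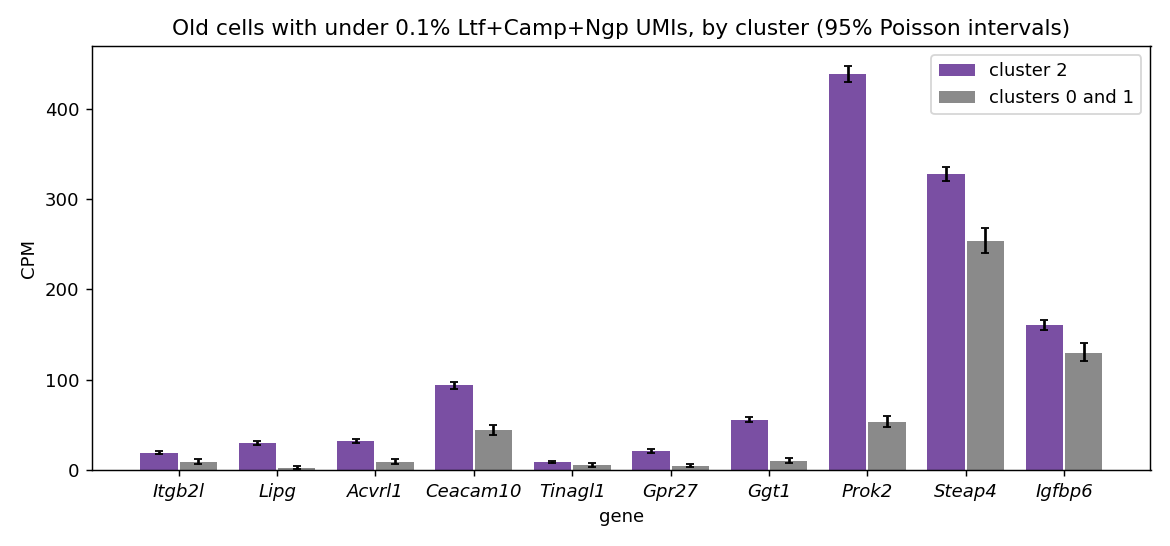
Level in CPM (vertical axis, from 0) of each gene in old neutrophil-like cells with under 0.1% of UMIs from Ltf, Camp and Ngp, for cluster 2 (2943 cells, purple) and clusters 0 and 1 (1254 cells, grey). Bars show exact 95% Poisson intervals. Prok2 stands apart at 438 against 53.6 CPM, while Steap4 and Igfbp6 differ by 1.29- and 1.23-fold. The old B cell-like level of Prok2 is 87.6 CPM, and 12.6 CPM without the 15 cells that held most of it.

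Within the second old band, cells thinned to 5000 UMIs were parted by whether they held a Prok2 UMI, which 1187 did and 496 did not. Lipg stood at 58.3 CPM in cells with and 23.4 CPM in cells without Prok2, 2.49-fold (1.88 to 3.35). Gpr27, Acvrl1, Ggt1, Itgb2l and Ceacam10 were 1.33- to 1.63-fold higher with Prok2, their intervals lying above 1, and Tinagl1 was 1.14-fold (0.818 to 1.62). Steap4 stood at 0.807-fold (0.729 to 0.894) and Igfbp6 at 0.683-fold (0.588 to 0.795). The granule share differed between the sets too, 0.215% with and 0.185% without Prok2. In the third band Lipg was 1.61-fold higher with Prok2 (1.16 to 2.25) and Itgb2l lower, at 0.776-fold (0.664 to 0.907). Ggt1, Acvrl1, Gpr27 and Ceacam10 stood there at 0.988- to 1.08-fold and Steap4 at 1.12-fold, all with intervals that span 1. In the fourth band Lipg stood at 1.35-fold (1.03 to 1.78), Ggt1 at 1.35-fold (1.01 to 1.81) and Ceacam10 at 1.16-fold (1.01 to 1.34), while the intervals of the other 6 genes spanned 1. All these cells come from 1 library.

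A cluster of 14 old cells carried 7 of 8 neutrophil progenitor markers, among them Elane, Fcnb, Mki67 and Top2a, at a median of 34353 UMIs. Itgb2l was found in 14 of these 14 cells at 232 CPM, and Lipg in 9 of them at 88.9 CPM (44 UMIs, 31 of them in 3 cells). Tinagl1 was found in 7 of them at 22.2 CPM, 5.42-fold over old B cell-like cells (2.13 to 13.8). Prok2 amounted to 3 UMIs there (6.06 CPM), Ggt1 to 2 UMIs and Gpr27 to 1 UMI, at or under the levels of old B cell-like cells. Acvrl1 stood at 12.1 CPM and Ceacam10 at 24.3 CPM, near the 15.7 and 21.3 CPM of old B cell-like cells. At a finer clustering (resolution 1.0) the progenitor-like cluster took in 104 old and 2 young cells, including basophil or mast cell-like ones.

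Outside neutrophils, Acvrl1, Igfbp6 and Ggt1 stood above the B cell-like level in monocyte-like or T cell-like cells. Acvrl1 stood at 33.9 CPM in 1300 old classical monocyte-like cells, 2.16-fold over old B cell-like cells (1.59 to 3.02), and at 28.1 CPM in 179 young ones, 17.6-fold over young B cell-like cells (7.2 to 55.7). It was seen in 37.5% of old and 28.5% of young classical monocyte-like cells. Igfbp6 stood at 63.0 CPM in the old classical monocyte-like cells, 3.84-fold over B cell-like cells (2.85 to 5.31), and at 10.2 CPM in the young ones, 1.23-fold (0.693 to 2.20). The young cells of this cluster differ from the old in more than these genes, with the antigen-presenting gene H2-Aa at 1096 CPM in young and 252 CPM in old cells. Ggt1 stood at 24.1 CPM in 179 old T cell-like cells, 2.69-fold over B cell-like cells (1.61 to 4.6), and at 10.6 CPM in 187 young ones (11-fold, 3.28 to 58.1). In 524 old non-classical monocyte-like cells 8 of the 10 genes exceeded the B cell-like level by 1.5- to 3.95-fold, all but Prok2 (84.6 CPM, 0.965-fold) and Gpr27 (0.947-fold), and the granule share was higher too, at 0.670% against the summed 0.190%. In young ones Acvrl1 (5.63-fold, 2.24 to 18.1) and Igfbp6 (1.76-fold, 1.12 to 2.87) did. Old erythroid-like cells, at a granule share of 0.342%, exceeded the B cell-like level for Ceacam10 by 2.35-fold (1.76 to 3.19). Tinagl1, Lipg, Ggt1, Itgb2l and Steap4 exceeded it there by 1.34- to 2.27-fold, while the intervals of the other genes spanned 1. Old basophil or mast cell-like cells stood at 205 CPM Prok2, with 24 of 25 UMIs in 1 of 17 cells. An unnamed cluster with neutrophil markers, whose leading genes include the platelet markers Itga2b and Clec1b, held 925 old cells. Prok2 stood there at 403 CPM.

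**Figure D5:**
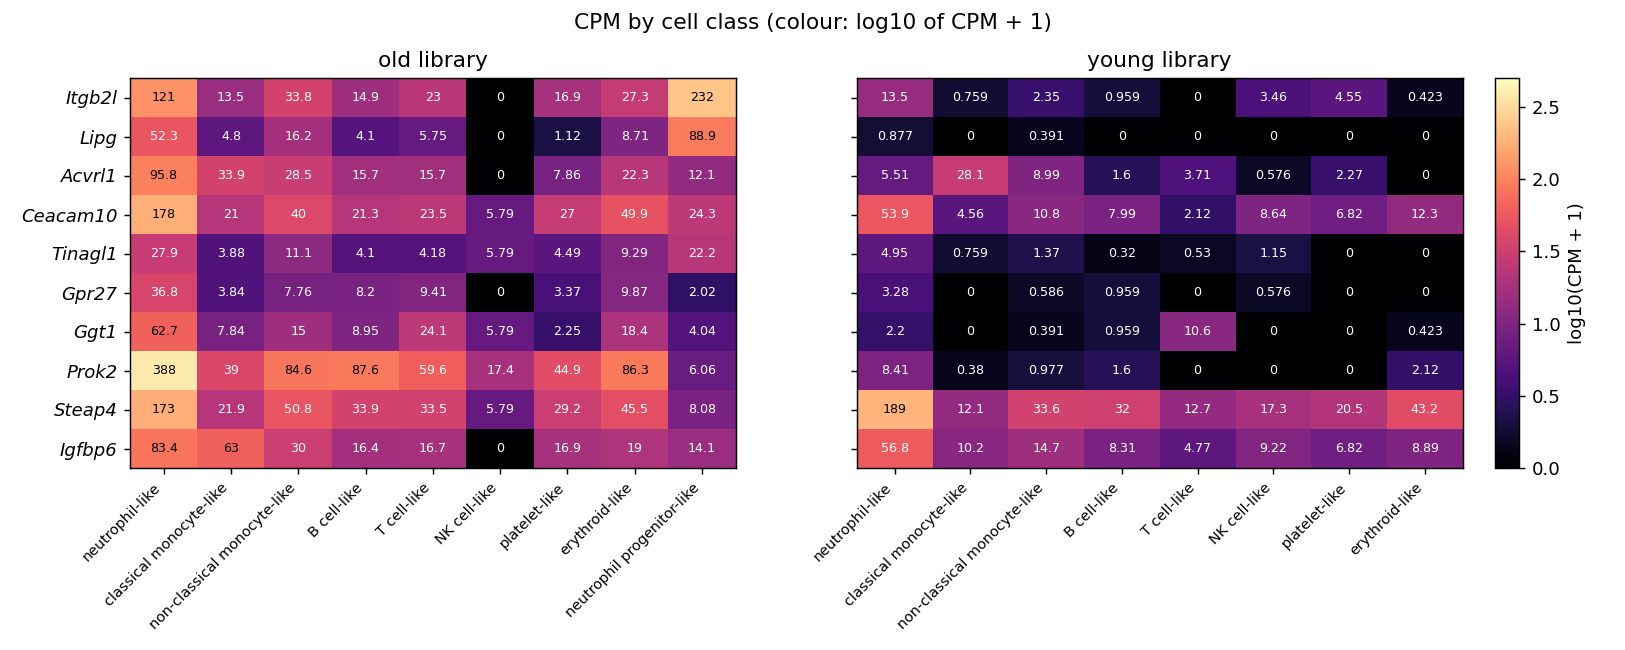
CPM of each gene in named cell classes of the old (left) and young (right) library, written in each cell, with colour on a log10 scale of CPM + 1. Basophil or mast cell-like cells and the unnamed clusters are left out. Progenitor-like cells (14) were found in the old library. Outside neutrophil-like cells, Acvrl1 is above its B cell-like level in classical monocyte-like cells of both libraries, Igfbp6 in those of the old library and Ggt1 in T cell-like cells.

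Partners of the 10 genes were counted from lists chosen by pathway, and the counts stand beside the 9.29% higher and 24.3% lower of all genes tested between the same old bands. Of the other prokineticin ligand, both prokineticin receptors and the accessory protein gene Mrap2, 0 of 4 reached 5 CPM, and Prokr1 came to 3 UMIs in old and 1 UMI in young neutrophil-like cells. Likewise 0 of 2 further SREB receptors reached it. In the old library, between the highest and the lowest band, 1 of 15 measured genes of ALK1 and BMP signalling was higher and 6 were lower. Id2, an inhibitor of basic helix-loop-helix factors, was the higher one, at 81.2 CPM in the highest and 36.9 CPM in the lowest band. Smad4, the shared signal mediator, stood at 40.1 and 116 CPM, and Eng, the ALK1 co-receptor, at 0 and 1 UMIs.

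Ceacam1, an adhesion receptor and the one other family member over the floor, was higher in the highest band as Ceacam10 was, at 196 CPM in the highest and 32.4 CPM in the lowest old band and at 226 and 29.5 CPM in the young bands. Itgb2 itself, the beta2 subunit that Itgb2l resembles, stood at 402 and 351 CPM in the old bands and at 524 and 421 CPM in the young bands. Of 9 measured beta2 integrin and adaptor genes, 0 were higher and 4 lower in the old highest band. Ggt5, the relative of Ggt1, stood at 37.0 CPM in the highest and 117 CPM in the lowest old band, and of 6 measured genes of the gamma-glutamyl cycle 0 were higher and 2 lower. Of the iron genes listed with Steap4, 0 of 5 measured were higher and 5 lower, among them the iron exporter Slc40a1 at 94.4 and 372 CPM. Of 4 measured IGF genes 1 was higher and 1 lower, and of 7 cathepsin-related genes 0 were higher and 3 lower. General lists of immature and mature neutrophil genes gave 13 of 18 higher and 0 lower, and 0 of 16 higher and 15 lower, in the old library.

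Leaving out the 10 genes and Ltf, Camp and Ngp, the genes whose pattern came nearest to that of Prok2 over the 10 library and band points were Upp1, Gclm, Gyg, Ly6g and Cmas, among 3381 genes at 50 CPM or more in at least 1 point. Likeness was the root-mean-square difference of centred log2 values, which was 1.12 for Upp1 and 1.33 for Cmas, so none matched closely. Upp1, a uridine phosphorylase, stood at 280, 310, 306, 256 and 170 CPM along the old bands and 35.9, 73.7, 69.5, 62.3 and 27.9 CPM along the young bands. Among the 10 genes, Ggt1 was nearest to Prok2, at 1.11, followed by Gpr27 at 1.28, and Ceacam10 and Tinagl1 were the closest pair, at 0.65.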

How the data were processed

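The deposited matrices hold whole-number UMI counts, made with Cell Ranger 7.2.0 per the file headers. The submitters' processing notes name build mm10; the annotation release and cell calling are not given in the sources used here. Each listed barcode has 500 UMIs or more. The genes, lists and bands were chosen with earlier results of these data known.

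Barcodes under 200 genes or over 20% mitochondrial UMIs were removed (817 old, 678 young). Both libraries were clustered together in scanpy 1.11.5 with 2000 variable genes, excluding the 10 genes, Ltf, Camp and Ngp, on 30 components with 15 neighbours and Leiden resolution 0.6. Clusters were named from marker lists, needing 3 detected markers, by limits set after the data were seen. No doublet caller was run; an alternative left out 353 old and 208 young neutrophil-like cells in which markers of other types made up 0.5% or more of UMIs. Neutrophil-like cells had median depths of 7449 (old) and 4075 (young) UMIs.

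UMIs were summed and scaled to CPM. Calls use log2 ratios with 1 CPM added, at 2-fold with a floor of 5 CPM in the mean of both groups, while printed folds are plain CPM ratios. Intervals are exact (Poisson, Clopper-Pearson, conditional binomial), a 0 was taken as up to 3 UMIs, and thinned shares are expected values. The ratio calculation was also run on simulated Poisson counts, which cover counting error only. The text names the 10 genes, some of the up to 3 genes per list with the largest old band ratio, and the 5 nearest to Prok2; Prokr1, Id2, Eng, Itgb2, Chil3, H2-Aa, Igsf5 and cluster-leading genes were named outside this rule, after their values were seen. The list of lipase genes is not reported here.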

Additional observations from a re-analysis of the deposited data

Results flagged for a closer look

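Prok2 was higher in the highest than in the lowest granule band of the young library and lower in the old library. The log2 ratio of the highest to the lowest band was -2.04 in old and 2.93 in young cells. In the lowest band Prok2 stood at 359 CPM in old and 4.6 CPM in young cells. The difference between the libraries was not tested, since each age has 1 library, and the young highest band holds 15 Prok2 UMIs in 4 cells.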

How the results depend on the processing

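The alternatives changed cells, clustering, scaling, floor, fold, bands and free RNA, and 2 of them, adding unnamed neutrophil clusters and taking off the B cell-like level, were chosen after the data were seen. The count of genes higher in old cells was 8 and ranged 8 to 9, that between old bands was 5 and ranged 5 to 6, and that between young bands stayed at 7. Genes with at least 2-fold the B cell-like share of cells numbered 10 in the old library throughout and 8 to 10 in the young. The count of genes higher in old cells of the highest band was 5, but 3 after thinning to 1000 UMIs and 2 with the B cell-like level taken off. There the Lipg log2 ratio reversed to -0.082 in 1 random draw of 1000 UMIs per cell. The young cells of that band then hold too few Lipg UMIs to decide its direction. The Prok2 log2 ratio reversed to -5.36 with the B cell-like level, itself mostly from 15 cells, taken off. Genes of the pathway and neutrophil lists higher in the highest old band numbered 17, but 26 relative to the median gene, which stood at -0.60 log2. Doubled band limits left 12 old and 2 young cells in the highest band, under the minimum of 20. They therefore gave no value for any comparison with that band, in either library. Over the 4 comparisons, 563 of 700 single-gene values stayed within counting error, 135 moved beyond it and 2 reversed. Gpr27 passed 2-fold between old bands under 7 settings, and the lower threshold of 1.5-fold also called it. No paired analysis was possible because each age has 1 library. Depth limits the young upper bands, with 25 to 81 cells each, in which a gene at 0 UMIs can be said only to lie under its limit.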
